A study of Mus musculus with 3 samples.

Results

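The genes described here are 33 members of the response to unfolded protein and to lack of amino acids: the sensors and transcription factors of the response, targets of the transcription factor Atf4, chaperones and folding enzymes of the endoplasmic reticulum (ER), and genes of ER-associated degradation. They were chosen by gene symbol from a table of 44788 genes, all 33 were found there, and all 33 passed the filter on low counts. RNA was sequenced from chondrocytes, the matrix-forming cells of cartilage, taken from knee joints of C57BL/6 mice. The cKO group (2 libraries, genotype Col2a1-CreERT2;Kdm6bf/f) carried floxed alleles of Kdm6b, which encodes a demethylase of histone H3, and a recombinase that the Col2a1 promoter directs to chondrocytes and that 4-hydroxytamoxifen activates. The control group (1 library, genotype Kdm6bf/f) carried the same floxed alleles without the recombinase. Cells of both groups were grown in F12 medium with 10% fetal bovine serum and received 1 µM 4-hydroxytamoxifen for 48 h, so the drug is common to both while the recombinase is not. The labels do not give the age of the mice or how many animals or cultures gave each library. The p-values rest on the spread between the 2 cKO libraries, combined with spread borrowed from all genes tested. The 1 control library adds no spread, and the p-values do not measure spread between animals beyond these libraries.

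A cell that loads its ER with more protein than it can fold switches on the unfolded protein response. The ER membrane holds its sensors: the kinase Perk (gene Eif2ak3), the kinase and RNase Ire1 (Ern1), which splices the Xbp1 message, and Atf6, a transcription factor released by proteolysis. Perk and the kinases that sense lack of amino acids, heme or double-stranded RNA all phosphorylate the initiation factor eIF2, which slows translation in general but favours translation of Atf4, and Atf4 then drives genes of amino acid supply and of feedback. Chondrocytes secrete large amounts of collagen and proteoglycan, and this response is known to matter in cartilage growth and in chondrodysplasias caused by misfolded collagen. Gene counts do not show splicing of Xbp1, translation of Atf4 or phosphorylation of any sensor.

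Short promoter motifs known for the ER and the amino acid branch of the response occur in many of these genes, and the sequences are shown so that the values below can be read beside them. In RefSeq promoters on GRCm38.p6, 250 bases before to 50 after the start of a gene, 30 of the 33 members were found, and Atf6, Hyou1 and Manf were not among them. Both strands were searched and the motif letters of different names did not overlap. The ER stress element, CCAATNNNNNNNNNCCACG, was present for 7 of the 30 members, against 0.137% of the 27025 genes with a promoter of this length. The second ER stress element (ATTGG, any base, CCACG) was present for Herpud1 and Dnajb11, against 0.044% of genes. The core of the amino acid response element, TGATGNAA, was present for 5 members (Trib3, Chac1, Vldlr, Asns and Herpud1), against 4.511% of genes. These motifs were picked because they are known for this pathway, so their larger share among its members is not an independent result. A match is a description of letters and does not show that a factor binds there.

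Windows with the ER stress element are given 5′ to 3′ on the strand of the gene, with the element in capitals, on GRCm38.p6. They lie at chr2:34772020-34772049 (plus strand) for Hspa5, chr10:86705608-86705686 (minus) for Hsp90b1, chr8:84847045-84847123 (minus) for Calr, chr11:50325770-50325848 (minus) for Canx, chr12:17266461-17266539 (plus) for Pdia6, chr14:118937797-118937875 (plus) for Dnajc3 and chr19:6046502-6046575 (plus) for Syvn1. In Calr the element reads on the other strand, and Hsp90b1 holds another copy on the other strand at positions -107 to -89 from its start. Position 0 is the first base of the gene in RefSeq, which can differ from its first base in GENCODE.
Hspa5: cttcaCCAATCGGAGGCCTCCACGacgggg
Hsp90b1: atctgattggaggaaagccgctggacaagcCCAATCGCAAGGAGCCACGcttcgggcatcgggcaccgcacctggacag
Calr: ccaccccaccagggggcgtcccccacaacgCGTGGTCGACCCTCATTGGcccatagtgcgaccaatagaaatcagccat
Canx: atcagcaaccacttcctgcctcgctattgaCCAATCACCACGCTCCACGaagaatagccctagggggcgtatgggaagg
Pdia6: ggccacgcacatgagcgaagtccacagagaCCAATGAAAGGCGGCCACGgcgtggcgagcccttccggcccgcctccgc
Dnajc3: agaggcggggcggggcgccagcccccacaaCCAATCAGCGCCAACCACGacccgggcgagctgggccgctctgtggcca
Syvn1: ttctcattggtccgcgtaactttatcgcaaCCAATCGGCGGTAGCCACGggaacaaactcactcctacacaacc

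Windows with the amino acid response core, again with the motif in capitals on GRCm38.p6, are given next. It reads on the other strand in Trib3, Chac1 and Vldlr. In Trib3 it lies after the RefSeq start, at 14 to 21, but before the start of the gene in GENCODE (chr2:152344032, minus). The windows are those of Trib3 (chr2:152344028-152344057, minus), Chac1 (chr2:119351019-119351086, plus), Asns (chr6:7693214-7693243, minus) and Vldlr (chr19:27216809-27216838, plus). The whole 250 bases before the start are given for Herpud1 (chr8:94386179-94386428, plus), whose promoter holds the amino acid response core on the other strand at -112 to -105 and the second ER stress element at -52 to -42.
Trib3: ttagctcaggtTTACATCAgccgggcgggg
Chac1: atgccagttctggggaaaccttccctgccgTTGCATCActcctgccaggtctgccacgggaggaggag
Asns: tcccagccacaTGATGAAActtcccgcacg
Vldlr: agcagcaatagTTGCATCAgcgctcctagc
Herpud1: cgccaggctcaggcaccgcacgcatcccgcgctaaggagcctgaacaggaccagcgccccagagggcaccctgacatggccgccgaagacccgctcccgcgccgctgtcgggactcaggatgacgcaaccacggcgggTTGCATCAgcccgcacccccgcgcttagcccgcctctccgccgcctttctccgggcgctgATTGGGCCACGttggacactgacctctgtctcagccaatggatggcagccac

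The libraries held between 12489738 and 12636471 counts. Kdm6b itself had 1049 and 948 counts in the cKO libraries against 1289 (adjusted p = 0.138 in edgeR), and gene counts do not separate the floxed part. The cKO libraries differed in Xist, the RNA of the inactive X chromosome, which had 2 counts in cKO replicate 1 and 10081 in cKO replicate 2, against 1 in the control, and in Ddx3y, a gene of the Y chromosome, with 680 and 0 counts against 732. They were thus not repeats of the same cells, and cKO replicate 2 differed from the other libraries in sex-linked transcripts. Chondrocyte markers were present in each library, and 8 of 9 fell in cKO. Over all genes tested, edgeR called 1.9% lower and 3.01% higher. The summed level of the chondrocyte markers was 15484 and 14505 CPM (counts scaled to a common library total, with TMM factors) against 26227 in the control. Of 12 leukocyte markers 4 could be tested and 0 were called by edgeR (2 at an unadjusted p under 0.05, both higher, 0 of 4 in DESeq2 and limma-voom). Their sum was 12.8 and 13.1 CPM against 7.98, and Emr1, Itgam, Tyrobp and Cd3e had no counts. Of 8 synovial fibroblast markers, 7 of them tested, 1 rose and 0 fell (sum 5698 and 4471 CPM against 6005). At an unadjusted p under 0.05 in edgeR, 2 of them were higher and 1 lower. Of 7 osteoblast markers, 4 of them tested, 1 fell and 0 rose (sum 7088 and 6972 CPM against 6830). The osteoblast sum was higher in cKO, but the median log2 fold change of the 4 was -0.60, with 2 lower at an unadjusted p under 0.05. Of 7 mural markers, 6 of them tested, 0 were called in edgeR, DESeq2 or limma-voom, with 1 at an unadjusted p under 0.05 (sum 1248 and 1410 CPM against 1212). Of 6 endothelial markers 1 was tested, Vwf, with 24 and 27 counts against 7 (log2 fold change 1.82, unadjusted p = 0.0103, adjusted p = 0.134 in edgeR). The endothelial sum was 2.33 and 2.27 CPM against 0.564, and Cdh5, Tie1 and Emcn had no counts. In bulk RNA a change in the mix of cells and a change per cell cannot be told apart, and the part of these shifts in the results below was not tested.

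Trib3 and Chac1, feedback genes of the Atf4 branch, and Herpud1, a degradation gene, fell in cKO, and no other member passed the test. In edgeR's quasi-likelihood test with Benjamini-Hochberg adjustment over all 15529 genes tested at a threshold of 0.05, 3 of the 33 members fell and 0 rose, and 30 were not called. Over all genes 4.91% were called, 1.9% lower and 3.01% higher. Among the 8003 genes within the control CPM range of the members (16.4 to 1433 CPM) 2.82% fell and 2.89% rose. With other methods the members that fell numbered 3 in edgeR's earlier quasi-likelihood method (2.01% of all genes), with Mthfd2 in place of Herpud1, 2 in limma-voom (2.32%), 1 with RLE size factors (1.48%) and 1 in DESeq2 (0.534%). In either direction limma-voom called 5.32% of all genes and DESeq2 1.98%. With the prior degrees of freedom, which set how far the test borrows its spread from all genes, at 5 and at 3 they numbered 1 (0.27%) and 0 (0.0258%). At an unadjusted p under 0.05, 10 members were lower and 0 were higher, against 7.31% and 8.35% of all genes, or 9.27% and 8.71% of those in the same CPM range. The median log2 fold change of the members was -0.14, and it was -0.24 in cKO replicate 1 and -0.14 in cKO replicate 2, beside -0.00222 over all genes tested.

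Both cKO libraries lay below the control for 21 of the 33 members and both above it for 5, while 7 had the control between the cKO libraries. The share of all genes with both cKO libraries below the control was 37.4%, and with both above it 36.6% (36.7% and 38.8% in the same CPM range). The members with both cKO libraries above were Canx, Pdia3, Calr, Hsp90b1 and Syvn1, and 0 of these 5 passed the test. The gap between the cKO libraries had a median of 0.12 on the log2 scale over the members, 0.12 over genes in the same CPM range and 0.18 over all genes. Manf and Sdf2l1 differed by 0.60 and 0.51 between them.

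**Figure D1:**
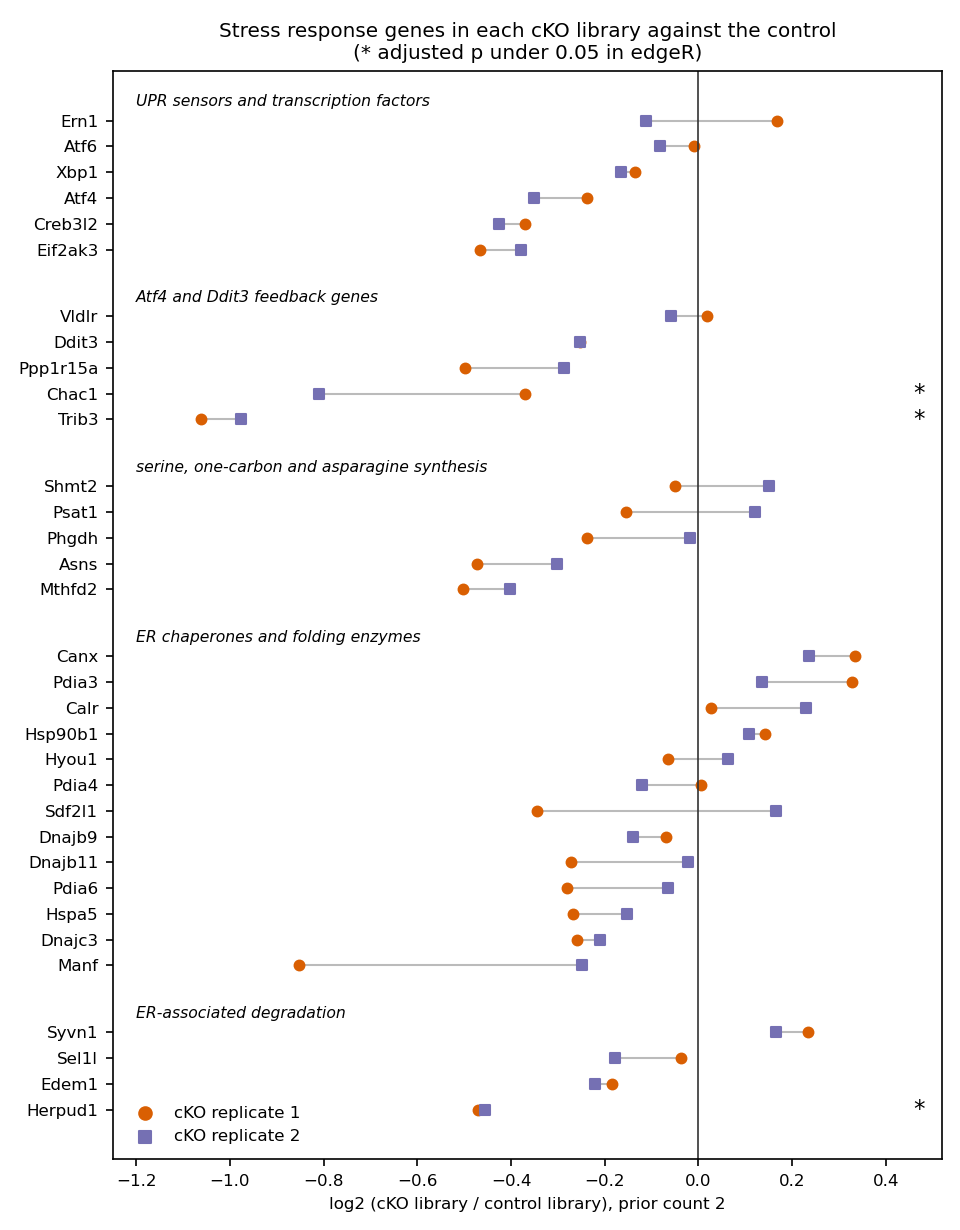
Log2 ratio of each cKO library to the control library (x axis, prior count of 2) for the 33 members, grouped by role, with circles for cKO replicate 1, squares for cKO replicate 2 and an asterisk where edgeR's adjusted p was under 0.05. Trib3 and Chac1 among the feedback genes and Herpud1 among the degradation genes carry the asterisks, and the 4 chaperones at the top of their group lie right of 0 in both libraries.

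Trib3 (GRCm38, chr2:152337422-152344032, minus strand) encodes a pseudokinase that Atf4 and Ddit3 induce and that binds the kinase Akt and Atf4 itself. It had 78.8 and 83.7 CPM in the cKO libraries against 165 CPM in the control. Both cKO libraries lay far below the control and close to each other. The level in cKO was 49.3% of the control, or -1.02 ± 0.13 (SE) on the log2 scale, with adjusted p = 1.62e-05 in edgeR, and the fall passed in DESeq2 and limma-voom as well. It was -0.98 without cKO replicate 1 and -1.06 without cKO replicate 2. The adjusted p was 0.133 with prior degrees of freedom of 3 and 0.351 without a filter on low counts.

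Chac1 (GRCm38, chr2:119351229-119354381, plus strand) encodes an enzyme that degrades glutathione and is a target of the same branch. It lay at 80.9 and 59.6 CPM in the cKO libraries against 105 CPM in the control. The cKO libraries were both lower, but cKO replicate 2 differed from replicate 1 by -0.44 on the log2 scale, more than replicate 1 differed from the control (-0.37). Its log2 fold change was -0.57 ± 0.16 (SE, adjusted p = 0.0378 in edgeR), and it was -0.37 without cKO replicate 2 and -0.81 without cKO replicate 1. It passed in limma-voom but not with RLE size factors (adjusted p = 0.0689 in edgeR) or in DESeq2 (adjusted p = 0.441).

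The other feedback genes had smaller differences. Ddit3, the stress-induced transcription factor Chop, lay at 93.2 and 93.3 CPM in the cKO libraries against 111 CPM in the control (log2 fold change -0.25 ± 0.14 SE, adjusted p = 0.391 in edgeR). A gene of opposite strand, Mars, overlaps the exons of Ddit3. The largest overlap of Ddit3, 105 bases, is with another entry of the same symbol on the same strand. Larger overlaps, with entries of the opposite strand, were found for Eif2ak3 (485 bases), Hsp90b1 (up to 415) and Manf (up to 166). Counts of genes overlapped on the opposite strand are uncertain where the strand is not known. Ppp1r15a, which encodes Gadd34, the phosphatase subunit that reverses phosphorylation of eIF2, had 52.2 and 60.5 CPM against 73.8 (-0.39 ± 0.15 SE, adjusted p = 0.168). Both cKO libraries were below the control for Ddit3 and Ppp1r15a. Vldlr, a lipoprotein receptor that Atf4 can induce, had 186 and 176 CPM against 184, with the control between the cKO libraries. Within a library, which removes the effect of scaling, there were 0.846 and 0.897 Trib3 counts per Ddit3 count in cKO against 1.48, a pair chosen after the values were seen.

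Genes of the sensors and transcription factors were mostly lower in both cKO libraries, yet 0 of 6 passed in edgeR, DESeq2 or limma-voom, with 3 of 6 at an unadjusted p under 0.05. Atf4 itself lay at 377 and 349 CPM in the cKO libraries against 445 CPM in the control (log2 fold change -0.29 ± 0.14 SE, adjusted p = 0.305 in edgeR). Eif2ak3, the gene of Perk, had 54.4 and 57.8 CPM against 75.2 (-0.42 ± 0.14, adjusted p = 0.108). Creb3l2, a membrane-bound factor that drives secretory genes and is known for its part in cartilage development, had 215 and 207 CPM against 278 (-0.40 ± 0.13, adjusted p = 0.101). For these 3 genes the cKO libraries lay near each other and below the control.

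Members of the Ire1 and Atf6 branches had smaller differences. Ern1 had 57.0 and 46.9 CPM in the cKO libraries against 50.7 CPM in the control, so the control lay between the cKO libraries. Atf6 had 104 and 99.0 CPM against 105, and Xbp1, the transcription factor whose message Ire1 splices, had 173 and 169 CPM against 190. The log2 fold changes were 0.03 ± 0.16, -0.05 ± 0.14 and -0.15 ± 0.13 (SE), none of them past the test.

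**Figure D2:**
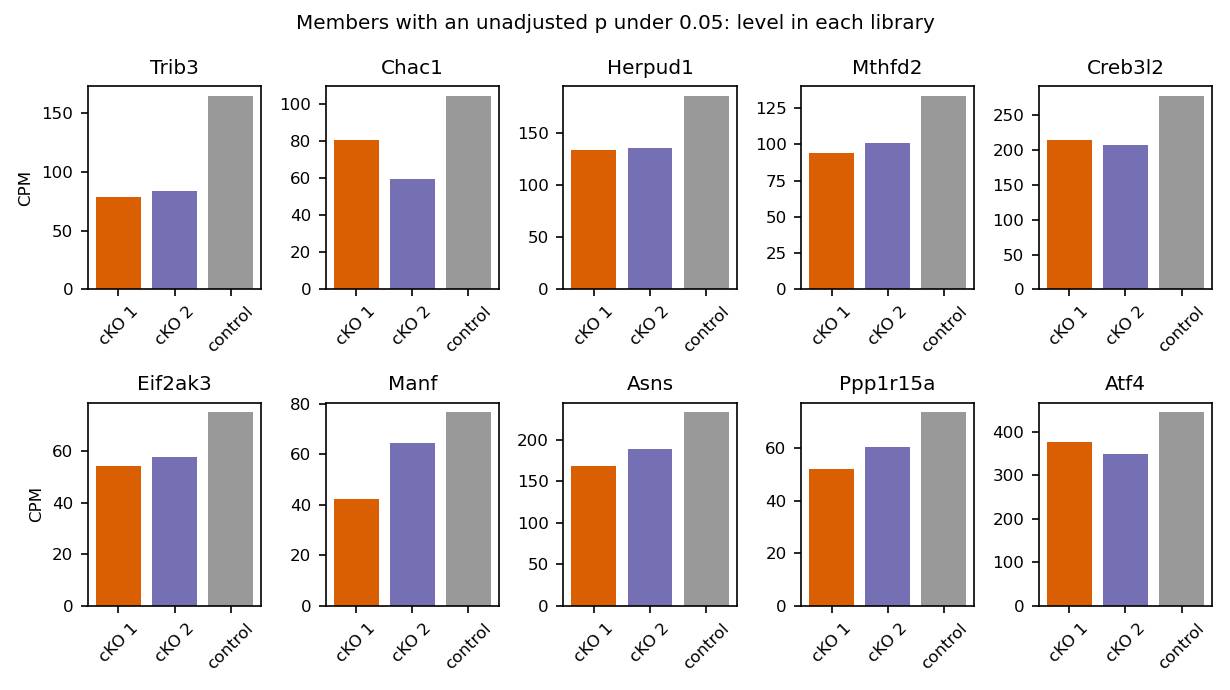
Level in CPM (y axis, from 0) in cKO replicate 1, cKO replicate 2 and the control for the 10 members with an unadjusted p under 0.05 in edgeR. Every bar of the cKO libraries is lower than that of the control, with the cKO bars far apart for Manf (42.4 and 64.5 CPM) and Chac1 (80.9 and 59.6 CPM).

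Among the enzymes that make serine, one-carbon units and asparagine, 0 of 5 passed in edgeR, DESeq2 or limma-voom, and 2 of 5 had an unadjusted p under 0.05. Mthfd2, a mitochondrial enzyme of the folate cycle, had 94.3 and 101 CPM in the cKO libraries against 134 CPM in the control. It differed by -0.45 ± 0.13 (SE) on the log2 scale, adjusted p = 0.0579 in edgeR, and of the methods run it passed only under edgeR's earlier quasi-likelihood method (adjusted p = 0.0490). Asns, which makes asparagine, had 168 and 189 CPM against 233 (-0.39 ± 0.14, adjusted p = 0.129 in edgeR). Both genes lay below the control in each cKO library.

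The enzymes of serine synthesis and use had smaller differences. Phgdh, the first enzyme of serine synthesis, had 121 and 141 CPM in the cKO libraries against 143 CPM in the control, and Psat1, the next enzyme, had 210 and 254 CPM against 234. Shmt2, which passes a carbon from serine to folate in mitochondria, had 216 and 249 CPM against 224. For Psat1 and Shmt2 the control lay between the cKO libraries, and all 5 enzymes were higher in cKO replicate 2 than in cKO replicate 1, by 0.10 to 0.28 on the log2 scale.

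The ER chaperones and folding enzymes held small differences of both signs, which nearly offset each other in their sum. Together the 13 genes had 7282 and 7510 CPM in the cKO libraries against 7198 CPM in the control, or 103% of the control, with 161 CPM of SD between the 2 cKO libraries. None of the 13 passed in edgeR, DESeq2 or limma-voom, and 1 of them, Manf, had an unadjusted p under 0.05. Both cKO libraries were below the control for 6, both above it for 4, and 3 had the control between them. Over all genes tested both were below for 37.4% and both above for 36.6%.

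The 4 that were higher in both cKO libraries were the lectin chaperones, their partner isomerase and the ER form of Hsp90. Canx, the membrane lectin calnexin, had 733 and 685 CPM in the cKO libraries against 582 CPM in the control (log2 fold change 0.29 ± 0.15 SE, adjusted p = 0.382 in edgeR). Calr, its soluble counterpart calreticulin, had 1459 and 1681 CPM against 1433, and Pdia3, the disulfide isomerase that works with both lectins, had 944 and 825 CPM against 752. The sum of these 3 genes, which were put together after their values were seen and so could only be higher, was 3136 and 3191 CPM against 2766. Hsp90b1, the ER form of Hsp90, had 1490 and 1454 CPM against 1350.

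Hspa5, which encodes BiP, the chaperone that holds the sensors inactive, lay on the other side. It had 1024 and 1110 CPM in the cKO libraries against 1233 CPM in the control (log2 fold change -0.21 ± 0.16 SE, adjusted p = 0.606 in edgeR). Within a library there were 1.40 and 1.62 Hspa5 counts per Canx count in cKO and 2.12 in the control, a comparison chosen after the values were seen. Of the genes with the ER stress element, Canx, Calr, Hsp90b1 and Syvn1 were higher in both cKO libraries, and Hspa5, Pdia6 and Dnajc3 lower in both. Over all genes tested both cKO libraries were above the control for 36.6% and below it for 37.4%. Of these 7 genes 0 had an unadjusted p under 0.05 in edgeR, so the sides they lay on are a description only. Of the 5 members with the amino acid response core 3 fell in edgeR, against 1.9% of all genes. The median log2 fold change of the 5 was -0.46. Of the 3, only Trib3 passed in DESeq2, and Trib3 and Chac1 passed in limma-voom. Genes outside the members that hold this core were not compared, so any link of the falls to the motif was not tested. The 7 with the ER stress element had 0 that were called in edgeR, DESeq2 or limma-voom and a median of 0.13. Of the 2 with the second ER stress element 1 fell, with a median of -0.30. That gene, Herpud1, also holds the amino acid response core and so counts in both groups.

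The co-chaperones and smaller folding proteins were mostly lower or level. Dnajc3, which assists BiP and can inhibit Perk, had 175 and 181 CPM in the cKO libraries against 209 CPM in the control, and Dnajb11, another co-chaperone of BiP, had 94.4 and 112 CPM against 114. Pdia6, a disulfide isomerase that regulates Ire1 and Perk, had 512 and 594 CPM against 622, and Dnajb9, which returns Ire1 to BiP, had 32.3 and 30.7 CPM against 33.9. These 4 lay below the control in each cKO library without passing the test. Manf, a secreted protein that stabilizes BiP complexes, had 42.4 and 64.5 CPM against 76.7 (log2 fold change -0.52 ± 0.18 SE, adjusted p = 0.122 in edgeR). Its value was -0.85 without cKO replicate 2 and -0.25 without cKO replicate 1, and exons of other genes, Dcaf1 among them, overlap its own.

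The remaining 3 chaperone genes had the control between the cKO libraries. Pdia4, a disulfide isomerase, had 462 and 424 CPM in the cKO libraries against 461 CPM in the control. Hyou1, a nucleotide exchange factor of BiP, had 302 and 330 CPM against 316. Sdf2l1, a partner of Dnajb11, had 12.8 and 18.4 CPM against 16.4, the lowest level in the list at 160, 235 and 203 counts.

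Levels per length ranged widely across the chaperones. On the scale of CPM per kb of annotated exon, Calr led with 507 and 584 in cKO and 498 in the control, and Dnajb9 was at 12.7 and 12.0 against 13.3. Hsp90b1 came next, at 370 and 361 CPM per kb against 335. The third place went to Hspa5 in the control (292 CPM per kb, against 239 for Pdia3) and to Pdia3 in cKO replicate 1 (301 against 242), while the 2 genes were level in cKO replicate 2 (263 each).

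**Figure D3:**
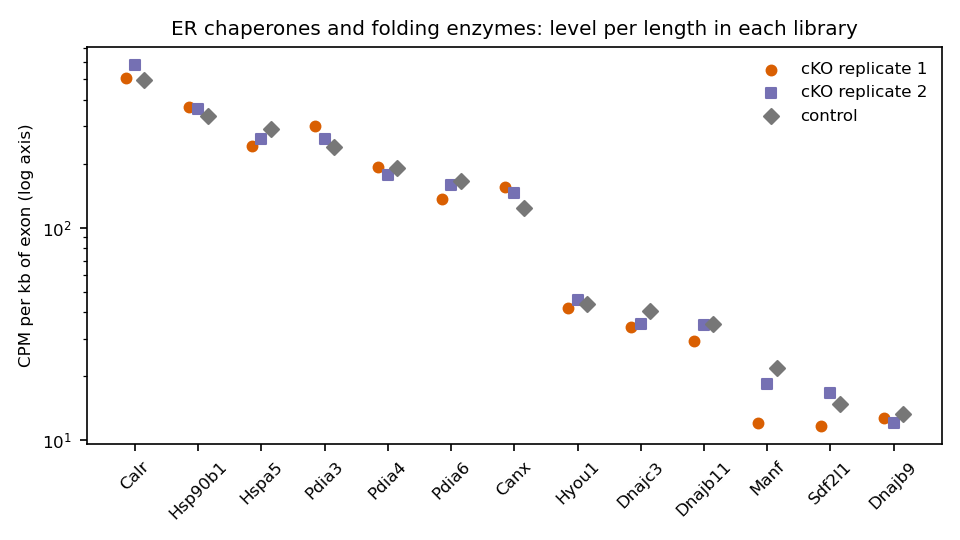
Level of the 13 ER chaperones and folding enzymes in CPM per kb of exon (y axis, log scale), with circles for cKO replicate 1, squares for cKO replicate 2 and diamonds for the control, ordered by the control. Calr, at 498 to 584 CPM per kb, is highest in every library, and Canx, Pdia3, Calr and Hsp90b1 have both cKO libraries above the control.

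In ER-associated degradation, which returns misfolded proteins to the cytosol for destruction, 1 of 4 members fell. Herpud1 (GRCm38, chr8:94386438-94395377, plus strand), a membrane protein that organizes the degradation complex, had 134 and 136 CPM in the cKO libraries against 186 CPM in the control. The cKO libraries were nearly equal, at 72.5% of the control, or -0.46 ± 0.13 (SE) on the log2 scale, with adjusted p = 0.0435 in edgeR. This call lies at the threshold: the adjusted p was 0.0569 in edgeR's earlier method, 0.0615 with RLE size factors, 0.0502 in limma-voom and 0.369 in DESeq2.

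The other members of degradation did not pass the test. Sel1l, its scaffold, had 261 and 237 CPM in the cKO libraries against 268 CPM in the control, and Edem1, which extracts misfolded glycoproteins from folding cycles, had 108 and 105 CPM against 123. Syvn1, the ubiquitin ligase Hrd1, had 103 and 97.8 CPM against 87.2 (log2 fold change 0.20 ± 0.14 SE, adjusted p = 0.549 in edgeR). Both cKO libraries lay below the control for Sel1l and Edem1 and above it for Syvn1.

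**Figure D4:**
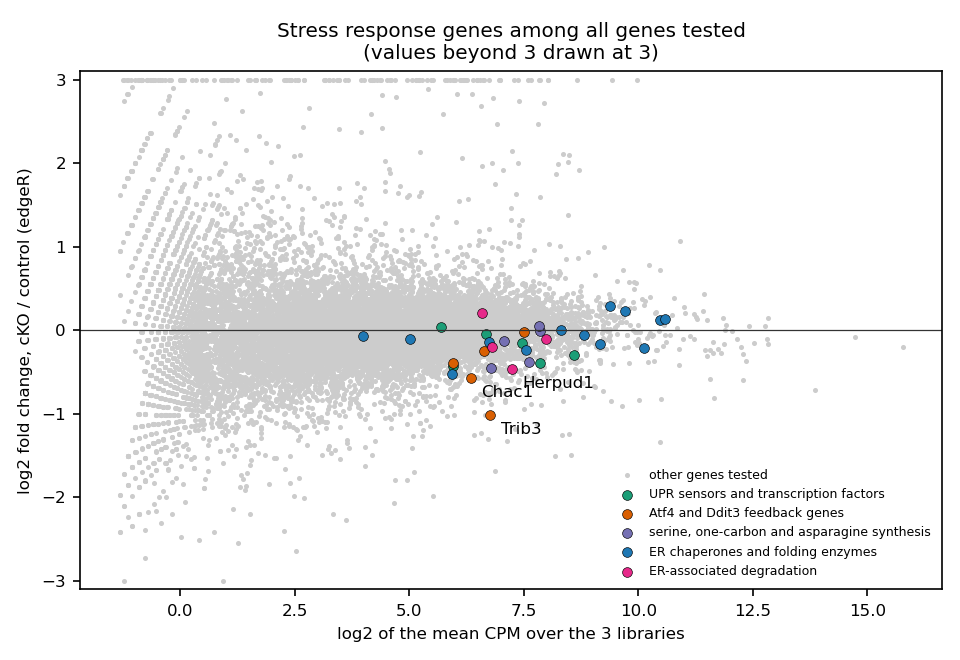
Log2 fold change of cKO over control from edgeR (y axis) against the log2 of the mean CPM of the 3 libraries (x axis), with members coloured by role over all other genes tested in grey. Trib3, at -1.02, stands lowest of the members, and the chaperones (blue) lie between -0.52 and 0.29.

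The other genes of the pathway were counted in 10 further lists with 189 tested genes, of which 6 fell and 2 rose. Over all genes tested 1.9% fell and 3.01% rose. Enzymes of amino acid and one-carbon metabolism outside the members held 3 of the falls, among 14 tested, with a median log2 fold change of -0.27. Pycr1, which makes proline, had 32.8 and 38.2 CPM in the cKO libraries against 67.2 CPM in the control (-0.92 ± 0.15 SE, adjusted p = 0.000434 in edgeR). Gpt2, a mitochondrial alanine transaminase, had 50.7 and 47.7 CPM against 80.2 (-0.71 ± 0.14, adjusted p = 0.00330), and Aldh1l2, a mitochondrial folate enzyme, had 236 and 210 CPM against 330 (-0.57 ± 0.14, adjusted p = 0.0141). In each of these genes both cKO libraries were well below the control.

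Amino acid transporters had 1 fall among 12, with a median of -0.19. Both cKO libraries were below the control for 10 of them, and for 37.4% of all genes. Slc7a3, a carrier of cationic amino acids, had 11.6 and 11.4 CPM in the cKO libraries against 21.2 CPM in the control (log2 fold change -0.88 ± 0.21 SE, adjusted p = 0.0132 in edgeR). The 18 cytosolic aminoacyl-tRNA synthetases, only some of which are known targets of Atf4, had a median of -0.05. They had 0 calls in edgeR, DESeq2 or limma-voom, with 1 at an unadjusted p under 0.05. The 18 other targets of Atf4 and Ddit3 had a median of -0.02 and 0 calls in the same tools, with 5 at an unadjusted p under 0.05, 2 of them higher and 3 lower.

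Of 14 genes of eIF2, its kinases, its phosphatase and its exchange factor eIF2B, with the separate factor Eif2a, 1 rose and 0 fell. The median was -0.00. The gene that rose was Eif2ak2, which encodes Pkr, the eIF2 kinase that senses double-stranded RNA and is induced by interferon. It had 176 and 156 CPM in the cKO libraries against 30.1 CPM in the control, a 5.52-fold difference (log2 fold change 2.47 ± 0.16 SE, adjusted p = 1.77e-10 in edgeR). Eif2ak3, whose product phosphorylates the same site of eIF2, was lower without passing the test, and the counts hold no measure of that phosphorylation.

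The lists of the secretory path and of folding outside the ER held 3 calls. Of 33 genes of ER translocation and export, 1 fell, the signal peptidase subunit Spcs1 (37.8 and 46.1 CPM against 61.8, log2 fold change -0.56 ± 0.16 SE, adjusted p = 0.0420 in edgeR), and the median was -0.14. Of 31 other ER folding genes, 1 fell, the cyclophilin Ppic (118 and 120 CPM against 176, -0.56 ± 0.13, adjusted p = 0.0116), with a median of -0.04. The 23 other degradation genes and the 8 other membrane-bound factors held 0 calls in edgeR, DESeq2 or limma-voom (3 and 1 at an unadjusted p under 0.05), with medians of -0.00 and 0.08. Heat-shock genes of the cytosol and mitochondria had a median of 0.19 over 18 genes, and 1 rose, Hspb8, a small heat-shock protein (60.3 and 55.1 CPM against 36.6, 0.66 ± 0.16, adjusted p = 0.0136). Of the 8 genes called in these 10 lists, 8 were called in limma-voom and 2, Eif2ak2 and Pycr1, in DESeq2. With RLE size factors 7 were called (Spcs1 had an adjusted p of 0.0620 in edgeR). With prior degrees of freedom of 5 or 3 only Eif2ak2 of the 8 was called, and Pycr1 had an adjusted p of 0.0718 and 0.279 in edgeR.

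**Figure D5:**
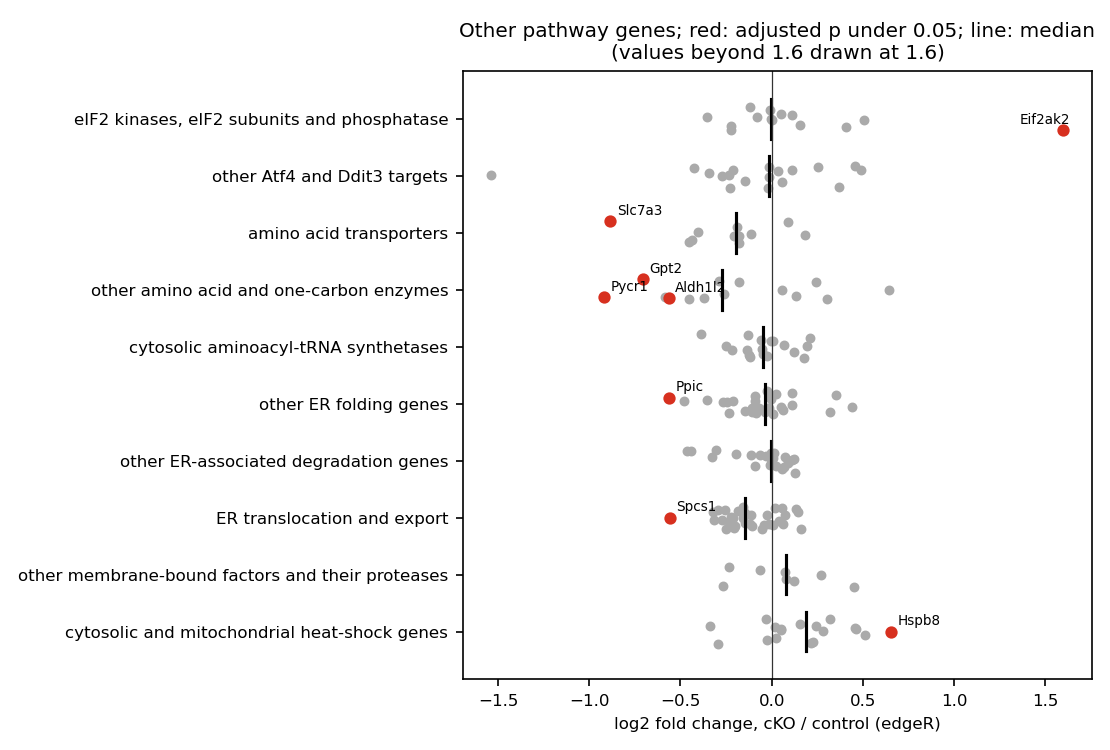
Log2 fold change of cKO over control (x axis, edgeR) for the genes of the 10 other pathway lists (rows), each point a gene, in red where the adjusted p was under 0.05, with a line at the list median. The red points left of 0 are Slc7a3, Pycr1, Gpt2, Aldh1l2, Ppic and Spcs1, and those right of 0 are Eif2ak2, drawn at the edge of the axis, and Hspb8.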

How the data were processed

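The authors deposited whole-number read counts per gene symbol, 1 column per library. The submitters' processing notes list the builds GRCm38 and GRCh37 with no role; the sources used here name no aligner, counting tool, annotation or strand setting. Per the labels' protocols, ribosomal RNA was depleted and libraries were made with an Ion Proton kit.

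From these counts, edgeR 4.0.16 in R 4.3.3 gave TMM-scaled CPM and the quasi-likelihood test (adjusted p threshold 0.05) on the 15529 genes that passed filterByExpr. It has 1 residual degree of freedom, so the control is assumed to vary like cKO and the test leans on 19.9 estimated prior degrees of freedom. The SE was taken from the log2 fold change and the square root of F, as their quotient. Alternatives were DESeq2 1.42.0, limma-voom (limma 3.58.1), RLE size factors, no filter, prior degrees of freedom of 3 or 5, each cKO library left out and, chosen after seeing the data, edgeR's earlier quasi-likelihood method. Log2 ratios of single libraries use a prior count of 2. On simulated counts the test recovered the simulated fold changes, but the estimate of the prior degrees of freedom, and with it the number of calls, varied widely between draws. The simulation gave every gene the same dispersion (spread beyond counting noise), so it cannot show how the test behaves where that spread differs by gene. Exon lengths and overlaps are from GENCODE M21 (GRCm38) and promoters from RefSeq. Windows that met an annotated exon, or whose motif lay after the start, were shortened to 30 bases. The windows of Hspa5, Asns and Vldlr lie before the RefSeq start but wholly within exons annotated in GENCODE.

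Members and lists were chosen with earlier results of these data known. All members are named, and in each other list up to 4 called genes whose mean CPM was 1 or more, by smallest p.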

Additional observations from a re-analysis of the deposited data

How the results depend on the processing

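With 1 control library and 2 cKO libraries, the calls depend on how the spread is estimated. Members that fell numbered 3 in the reported test, 1 in DESeq2, 1 with RLE size factors, 1 with prior degrees of freedom of 5, 0 with prior degrees of freedom of 3 and 0 without a filter on low counts. Over all genes, the number that fell was 295 in the reported test, 83 in DESeq2, 42 and 4 with prior degrees of freedom of 5 and 3, and 0 without a filter, and the number that rose was 467, 225, 151, 83 and 0 in the same order. Without a filter edgeR tested 24051 genes, estimated 2.03 prior degrees of freedom and found 1829 genes at an unadjusted p under 0.05. The alternatives with a test use the same 3 libraries, so they say little about direction; Hyou1, at 0.00 in the reported test, was -0.000600 in limma-voom. Ern1, Vldlr, Psat1, Shmt2, Pdia4, Hyou1 and Sdf2l1 have opposite signs depending on which cKO library is left out. The member median ranged from -0.24 (without cKO replicate 2) to -0.14 (without cKO replicate 1). The log2 ratio of the summed chaperones, 0.04, was 0.0857 without Hspa5, which has the opposite sign of difference to the sum. Leaving out a cKO library leaves no residual degrees of freedom, so no counts of calls could be had. Where not shown by the number of genes tested or the prior degrees of freedom, the cause was not tested. No paired analysis was possible because the control has 1 library and no replicate number. Depth limits Sdf2l1 most, at 160 to 235 counts.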
